A study of Mus musculus with 3 samples.

Results

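The genes examined carried strong, narrow peaks after infection with a control virus, 9 of the 19050 genes named as nearest gene in the deposited comparison of both viruses. They were Tyr, Emx1, Hoxd13, Fgf21, Fgf5, Mstn, Kcna1, Dnmt3a and Dnase2b, and every region whose deposited nearest gene was one of them was taken, 133 of 543367. The genes were chosen by their strong, narrow peaks in the control virus library, so those reads, and every comparison of them with the Ets-1 virus library or with the input, are descriptions. The data are 3 libraries of Min6 cells, a mouse insulinoma line used as a model of pancreatic β cells. The first group was infected for 24 h with an adenovirus that overexpresses Ets-1 (Ad-Ets-1) and the second with an adenovirus that carries GFP (Ad-GFP), and chromatin of both was precipitated with the same Ets-1 antibody and sequenced in pairs (ChIP-seq). The last is an input library of chromatin without precipitation, whose virus the labels do not state. Each group holds 1 library, so none of the differences could be set against replicates, and p-values are left out. Cells were kept in 25 mM glucose and crosslinked with 1% formaldehyde for 10 min. The Ad-Ets-1 library is also called the Ets-1 virus library, and the Ad-GFP library the control virus library.

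The libraries were shallow, with totals of 1938473 reads after Ad-Ets-1, 1775757 after Ad-GFP and 3937473 in the input, as recovered from the deposited values, and most listed regions were close to empty: 91.0%, 89.3% and 99.9% of them held 2 or fewer reads in these libraries. Ratios are reads scaled to those totals, Ets-1 virus over control virus unless stated. Their 95% exact binomial intervals were computed on read pairs. Such intervals hold counting error only, not the spread between libraries, and reads amplified by PCR are not independent molecules. A count of 0 was replaced by a floor of 3 reads per library for a ratio.

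Ets-1 is a winged helix-turn-helix transcription factor that binds a GGAA core, mostly at promoters and enhancers. ChIP-seq counts DNA fragments that the antibody brings down, and a binding site gives a pile of fragments around it that stands above the same place in input chromatin. Of the 9 genes, 8 are known mainly for work outside the β cell. Tyr encodes tyrosinase, the enzyme of melanin synthesis in pigment cells; Emx1 and Hoxd13 encode homeodomain factors of the developing forebrain and of the limb; Kcna1 encodes a voltage-gated potassium channel of neurons. Fgf21 and Fgf5 encode fibroblast growth factors, the first a metabolic hormone released mainly by the liver and the second a regulator of hair growth; Mstn encodes myostatin, which restrains muscle mass. Dnase2b encodes a nuclease that degrades DNA in the eye lens. Dnmt3a encodes a DNA methyltransferase found in many tissues, so it cannot be called foreign to a β cell. RNA was not measured, and expression in these cells cannot be checked for any of the 9.

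The sequences at the summits of the leading regions, the region of each gene with the most Ad-GFP reads, show where the reads lay. They are letters of RefSeq's reference genome, build GRCm38 (mm10), on the strand of the gene, with bases of coding exons in capitals and all other bases in lower case. Windows are 120 bases at the summit, shortened for Dnmt3a, where the stretch starts with the first intronic base after a coding exon.
Kcna1, chr6:126642381-126642500, minus strand: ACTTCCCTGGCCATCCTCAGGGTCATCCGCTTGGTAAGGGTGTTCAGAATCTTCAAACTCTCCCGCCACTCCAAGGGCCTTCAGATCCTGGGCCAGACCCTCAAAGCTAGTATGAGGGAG
Hoxd13, chr2:74669948-74670067, plus strand: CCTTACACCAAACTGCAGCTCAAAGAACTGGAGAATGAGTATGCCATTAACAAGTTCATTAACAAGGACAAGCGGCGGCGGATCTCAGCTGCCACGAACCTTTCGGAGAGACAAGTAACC
Emx1, chr6:85194046-85194165, plus strand: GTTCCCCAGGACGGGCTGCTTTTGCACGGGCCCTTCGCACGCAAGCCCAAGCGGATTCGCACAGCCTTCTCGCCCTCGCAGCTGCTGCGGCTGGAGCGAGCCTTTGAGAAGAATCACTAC
Tyr, chr7:87492510-87492629, minus strand: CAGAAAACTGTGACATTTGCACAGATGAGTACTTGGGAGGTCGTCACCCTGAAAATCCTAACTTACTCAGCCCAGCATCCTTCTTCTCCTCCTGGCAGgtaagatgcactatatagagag
Fgf21, chr7:45614924-45615043, minus strand: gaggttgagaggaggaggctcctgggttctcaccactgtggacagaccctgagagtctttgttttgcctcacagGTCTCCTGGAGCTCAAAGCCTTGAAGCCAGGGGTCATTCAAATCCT
Mstn, chr1:53061967-53062086, plus strand: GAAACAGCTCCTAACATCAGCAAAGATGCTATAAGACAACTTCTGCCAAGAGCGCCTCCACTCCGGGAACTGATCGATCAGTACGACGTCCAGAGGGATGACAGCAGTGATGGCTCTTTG
Fgf5, chr5:98254665-98254784, plus strand: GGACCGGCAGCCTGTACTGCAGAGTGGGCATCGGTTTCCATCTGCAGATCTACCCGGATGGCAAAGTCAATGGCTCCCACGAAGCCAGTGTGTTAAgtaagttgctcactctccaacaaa
Dnmt3a, chr12:3896686-3896751, plus strand: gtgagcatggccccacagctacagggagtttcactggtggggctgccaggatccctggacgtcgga
Dnase2b, chr3:146614618-146614737, minus strand: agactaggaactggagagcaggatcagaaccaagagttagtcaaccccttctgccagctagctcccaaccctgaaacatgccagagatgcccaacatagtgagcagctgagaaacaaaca

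Of the 9 summits, 6 lay inside a coding exon, in Kcna1, Hoxd13, Emx1, Tyr, Mstn and Fgf5. The windows of Hoxd13 and Emx1 reach into their homeoboxes, the part of the gene that codes for the DNA-binding domain, and that of Kcna1 covers the segment that codes for the voltage sensor. The Tyr and Fgf5 windows run over the end of the first coding exon into the intron. In Fgf21 the summit fell in the intron between the first and the second coding exon, 15 bp from the nearer one, and in Dnmt3a 7 bp past a coding exon. Dnase2b was the exception: its summit lay 2107 bp from the nearest coding exon, in DNA shared by the Dnase2b and Uox genes.

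Kcna1 held the most reads. Its leading region (chromosome 6, 126642217 to 126642661) held 16 reads after Ad-Ets-1, 204 after Ad-GFP and 21 in the input, a ratio of 0.0718 (95% interval 0.0302 to 0.147). The region was 445 bp wide and lay wholly in the coding part of exon 2 of 2. Ad-GFP reads were 21.5 times the input (13.4 to 36.3), while Ad-Ets-1 reads were 1.55 times the input, with an interval of 0.593 to 3.64 that spans 1. The other 17 regions named after Kcna1 were distal and held 26 Ets-1 virus, 20 control virus and 0 input reads in all.

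Hoxd13 had 2 listed regions, 1 on each of its 2 coding exons. The region on exon 2 (chromosome 2, 74669785 to 74670254) held 8 reads after Ad-Ets-1, 192 after Ad-GFP and 10 in the input, a ratio of 0.0382 (0.0102 to 0.101). The region on exon 1 (74668786 to 74669185) held 4 reads after Ad-Ets-1, 182 after Ad-GFP and 17 in the input, with a ratio of 0.0201 (0.0024 to 0.0748). The files class the region on exon 2 as 3′ UTR, but 248 of its 470 bp are coding. They class that on exon 1 as promoter, but 293 of its 400 bp are coding. Both summits lay in coding sequence. No further region was named after Hoxd13. Ad-GFP reads were 42.6 times the input on exon 2 (22.2 to 91.6) and 23.7 times on exon 1 (14.0 to 42.5).

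Emx1 had 1 strong region of its 8 (chromosome 6, 85193906 to 85194325), with 22 reads after Ad-Ets-1, 174 after Ad-GFP and 12 in the input, a ratio of 0.116 (0.0558 to 0.218). The files class it as a promoter 387 bp from a start site, which is that of another transcript; its summit lay 6668 bp from the start of the principal transcript, on exon 2 of 3, and 44.0% of the region is coding. Emx1 was 3.72 times the input after Ad-Ets-1 (1.49 to 9.22, or 1.26 to 12.3 with input reads also taken in pairs) and 32.2 times after Ad-GFP (17.5 to 64.6). Its other 7 regions held at most 2 Ad-Ets-1 reads each.

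Tyr had the lowest ratio. Its leading region (chromosome 7, 87492325 to 87492781) held 2 reads after Ad-Ets-1, 142 after Ad-GFP and 4 in the input, a ratio of 0.0129 (0.000322 to 0.0742), and covered 250 bp of coding exon 1. Ad-GFP reads were 78.7 times the input (29.4 to 297), and Ad-Ets-1 reads 1.02 times (0.0206 to 10.3). A second region on the same exon (87492972 to 87493337) held 2 reads after Ad-Ets-1, 20 after Ad-GFP and 4 in the input, with a ratio of 0.0916 (0.00211 to 0.644). Of the 61 regions named after Tyr, 20 were distal and 9 overlapped the neighbouring Nox4 gene, and apart from 2 regions with 7 and 6 Ad-GFP reads and none after Ad-Ets-1 or in the input, the rest held at most 4 reads in either precipitated library.

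**Figure D1:**
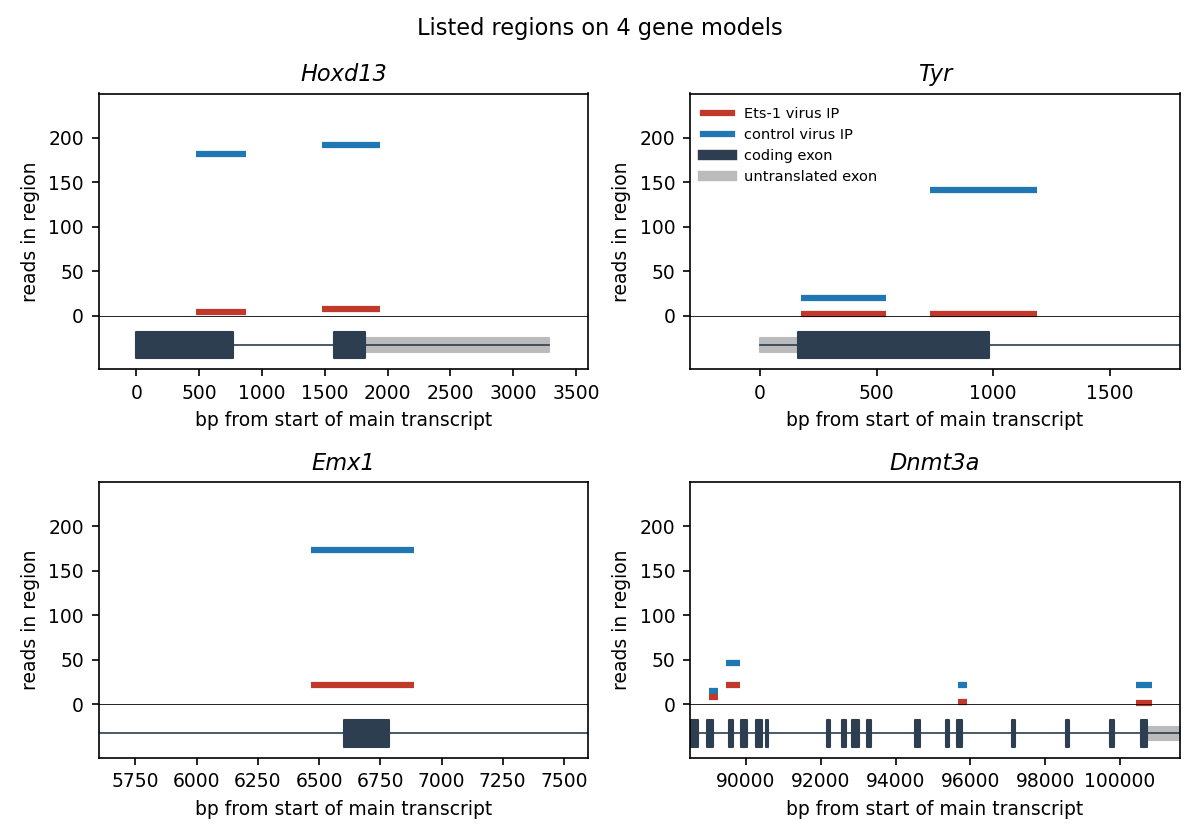
Listed regions of Hoxd13, Tyr, Emx1 and Dnmt3a on their principal transcripts; the x axis gives the distance from the transcript start in bp and the y axis the reads in a region, with red bars for the Ets-1 virus library and blue bars for the control virus library (1 library each). Dark boxes are coding exons, grey boxes untranslated exon parts. The tallest blue bars sit at or beside coding exons, at 192 and 182 reads in Hoxd13, 142 in Tyr, 174 in Emx1 and 47 in Dnmt3a, with red bars at 8, 4, 2, 22 and 22.

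Dnmt3a had its reads spread over several exons and the highest ratio of the 9 genes. Of its 12 regions, 4 held 5 or more reads, on exons 8, 9, 19 and 23 of the 23 exons of the principal transcript. The region on exon 9 (chromosome 12, 3896500 to 3896870) held 22 reads after Ad-Ets-1, 47 after Ad-GFP and 18 in the input, a ratio of 0.429 (0.186 to 0.89). That interval overlaps the one of Emx1, whose leading region held as many Ad-Ets-1 reads. The files class it as a promoter at -550 bp from a start site, but its summit lay 89662 bp into the principal transcript. Exon 8 held 8 reads after Ad-Ets-1, 15 after Ad-GFP and 6 in the input, a ratio of 0.489 (0.101 to 1.71) whose interval spans 1. Exon 19 held 3 reads after Ad-Ets-1, 22 after Ad-GFP and 4 in the input (ratio 0.125, 0.0179 to 0.763). Exon 23 held 2 reads after Ad-Ets-1, 22 after Ad-GFP and 2 in the input (ratio 0.0833, 0.00193 to 0.573). Each of these 4 regions met the edge of a coding exon, with summits at most 7 bp from coding sequence. On exon 9 the Ad-Ets-1 reads were 2.48 times the input (1.06 to 5.55, or 0.935 to 6.78, which spans 1, with input reads also taken in pairs) and the Ad-GFP reads 5.79 times (3.08 to 11.6).

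Both growth factor genes had a single strong region at the start of the gene. Fgf21 (chromosome 7, 45614759 to 45615157), its only listed region, held 4 reads after Ad-Ets-1, 30 after Ad-GFP and 4 in the input, a ratio of 0.122 (0.0136 to 0.525), and reached across exons 1 and 2. Fgf5 (chromosome 5, 98254468 to 98254901) held 2 reads after Ad-Ets-1, 20 after Ad-GFP and 2 in the input, with a ratio of 0.0916 (0.00211 to 0.644), and covered 293 bp of coding exon 1. Mstn (chromosome 1, 53061870 to 53062184) held 2 reads after Ad-Ets-1, 26 after Ad-GFP and 10 in the input, with a ratio of 0.0705 (0.00166 to 0.469), with 272 of its 315 bp in coding exon 1. In Mstn the Ad-GFP reads were 5.77 times the input (2.34 to 14.7), the lowest of the leading regions, against 16.6 times in Fgf21 (5.3 to 68.8) and 22.2 times in Fgf5 (4.73 to 208).

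The Dnase2b region (chromosome 3, 146614554 to 146614847) held 0 reads after Ad-Ets-1, 12 after Ad-GFP and 2 in the input. With the 0 set to the floor of 3 reads, its scaled Ad-Ets-1 reads were 4.37-fold lower than the Ad-GFP reads. The interval of the ratio ends at 0.778, so a much smaller difference is not excluded. Ad-GFP reads were 13.3 times the input (2.38 to 135). The region holds no annotated exon base. The files class it as a promoter 749 bp from a start site, which is that of another transcript. Its summit lay upstream of the principal transcript, at -18066 bp from its start. The choice of genes had no numeric limit, and the peak of Dnase2b, the gene with the fewest reads in its leading region, had the same values as that of a gene left out: in the authors' deposited table both Dnase2b and Cherp had a fold of 5.47 and a −log10 q of 4.16, and both held 0 reads after Ad-Ets-1 and 12 after Ad-GFP, with 2 input reads in Dnase2b and 1 in Cherp. Irs1, also left out, had a fold of 7.23 in the authors' deposited table but 64 Ad-Ets-1 and 57 Ad-GFP reads, a ratio of 1.03 (0.592 to 1.73). Another Irs1 region held 62 Ad-Ets-1 and 22 Ad-GFP reads, a ratio of 2.58.

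**Figure D2:**
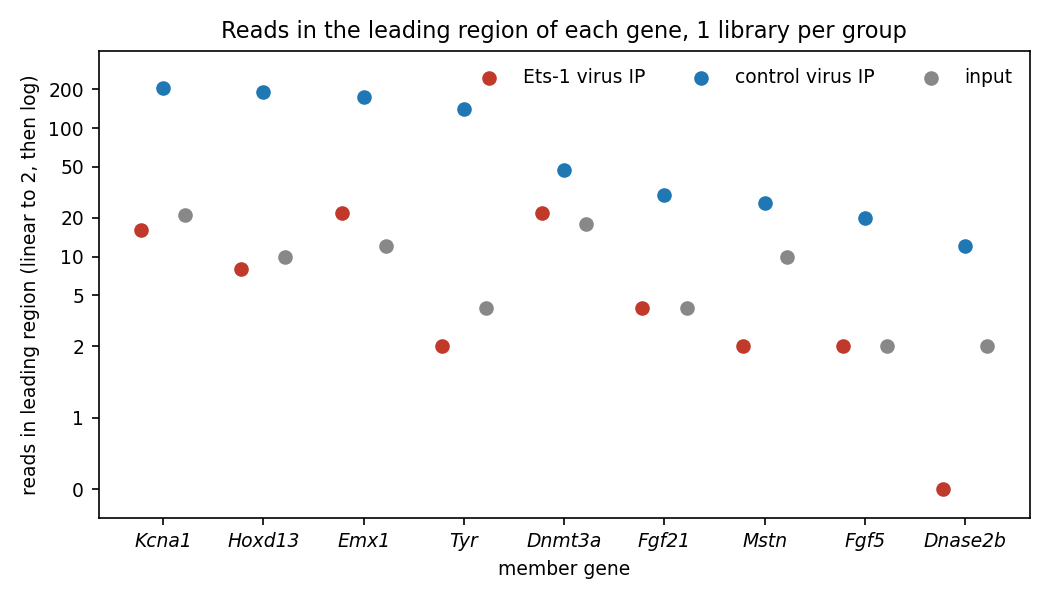
Reads in the leading region of each gene (y axis, linear to 2 and logarithmic above) in the Ets-1 virus library (red), the control virus library (blue) and the input (grey), 1 library per group. Blue points run from 204 in Kcna1 to 12 in Dnase2b, and red points from 22 in Emx1 and Dnmt3a to 0 in Dnase2b. The grey points, from 21 to 2, lie in the range of the red ones.

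Set side by side, the leading regions fell into a group of 4 with 142 to 204 Ad-GFP reads (Kcna1, Hoxd13, Emx1, Tyr) and a group of 5 with 12 to 47. Ratios ranged from 0.0129 to 0.429 with a median of 0.0916, against a median of 0.763 over the 22425 regions with 5 or more reads in a precipitated library. All 9 ratios were at most 0.5, as were those of 38.7% of the 22425 regions, and all 9 Ad-GFP to input ratios were at least 5, against 19.3%; since the genes were chosen for these reads, nothing is read from either count. Of the 133 regions, 16 (12.03%) held 5 or more reads in a precipitated library, against 4.13% of all regions, reads by which the genes were chosen, and the leading regions held 847 of the 1290 Ad-GFP reads of all 133, or 65.7%.

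The 16 regions with 5 or more reads held 97 Ad-Ets-1 and 1121 Ad-GFP reads. The other 117 held 129 Ad-Ets-1 and 169 Ad-GFP reads, a ratio of 0.699 (0.499 to 0.979), where the limit on reads itself keeps large differences out. The same limit left 520942 regions in the whole table, with a ratio of 0.687 (0.683 to 0.691). Of the regions named after the same gene, none had its summit within 10 kb of the leading one in Emx1 and Fgf21, 1 did in Hoxd13, Kcna1 and Mstn each, 3 in Dnase2b, 4 in Fgf5 and Dnmt3a each and 7 in Tyr. The leading regions themselves were 294 to 470 bp wide.

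Whether the input entered the peak folds by which the genes were chosen is not known, so its reads are described here. Of the 9 leading regions, 7 held 3 or more input reads, the exceptions being Fgf5 and Dnase2b with 2 each, against 0.108% of all listed regions. An even spread of the input over the genome would put 0.437 to 0.699 reads in regions of these widths, and the leading regions held 3.10 to 32.6 times as many, with Dnmt3a and Kcna1 highest. High input was not particular to them. Of 144 regions of other genes with 20 or more Ad-GFP reads and no satellite repeat, 95.1% also held 3 or more input reads. Their median was 24, against 10 in the leading regions. Of the 26 among them with a ratio of at most 0.5, 84.6% did, with a median of 7.5 input reads. Which virus the input cells received is not in the labels, and the part of that DNA in the Ad-GFP reads was not tested.

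The peak lists come from the same reads, and the control virus peaks chose the genes, so they are given as a description. All 9 genes had a control virus peak with a q of at most 0.05, 14 of their 92 peaks, against 0.827% of all 339856. None had such a peak after Ad-Ets-1 among 51 peaks, against 1.38% of all 237322, and nothing is read from a count of 0 at that share; the best of the 51 had a fold of 2.78 and a −log10 q of 0.546 in the authors' deposited table, and Hoxd13 and Fgf21 had no Ets-1 virus peak at all. By fold in the authors' deposited table, Tyr ranked 2 of 339856 control virus peaks at 19.4, Emx1 3 at 17.6, Hoxd13 4 and 6 at 17.2 and 15.7, Kcna1 12 at 11.8 and Fgf21 20 at 9.22. In the same table the leading peaks of Fgf5, Mstn, Dnase2b and Dnmt3a ranked 65, 93, 97 and 359, with folds of 6.38, 5.53, 5.47 and 4.42. Outside its leading region, Dnmt3a had control virus peaks with higher folds of 7.16, 5.70 and 4.65, ranked 41, 77 and 238. The best of these outranked the leading peaks of Fgf5, Mstn and Dnase2b. The leading regions of Kcna1, Emx1 and Dnmt3a held 16, 22 and 22 Ad-Ets-1 reads and 21, 12 and 18 input reads. They were left out of the Ets-1 virus list. Of all 156 regions with 16 or more Ad-Ets-1 and 10 or more input reads, 134 (85.9%) were in that list. Nothing is read from so few regions.

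Most leading regions lay on coding sequence. Of the 9, 8 (88.9%, 95% exact Clopper-Pearson interval 51.8 to 99.7) overlapped a coding exon by at least 1 bp, against 2.92% of all listed regions and 3.59% of those of the same widths. The deposited classes make promoters of 7 of the 9, and promoters lie near exons, so well-read promoters are the closer comparison. Of 33 promoter regions of other genes with 20 or more Ad-GFP reads, 10 overlapped a coding exon (30.3%, 15.6 to 48.7), and of the 6 among them with a ratio of at most 0.5, 3 did (50.0%, 11.8 to 88.2). Of the 118 regions with 20 or more Ad-GFP reads and a ratio above 0.5, 13 did (11.0%, upper bound 18.1), and of 30 with 20 or more Ad-Ets-1 reads and a ratio of 2 or more, 4 did (13.3%, 3.76 to 30.7). Of the 8 regions of other genes with 20 or more Ad-GFP reads and a ratio of at most 0.25, 6 did (75.0%, 34.9 to 96.8). The interval of the 9 genes overlaps those of the sets of 6 and 8 regions. It lies above those of the sets of 33, 118 and 30. The 9 genes were chosen by their reads, so nothing is read from this order. Regions of a set are not replicates, and these intervals treat them as independent draws.

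**Figure D3:**
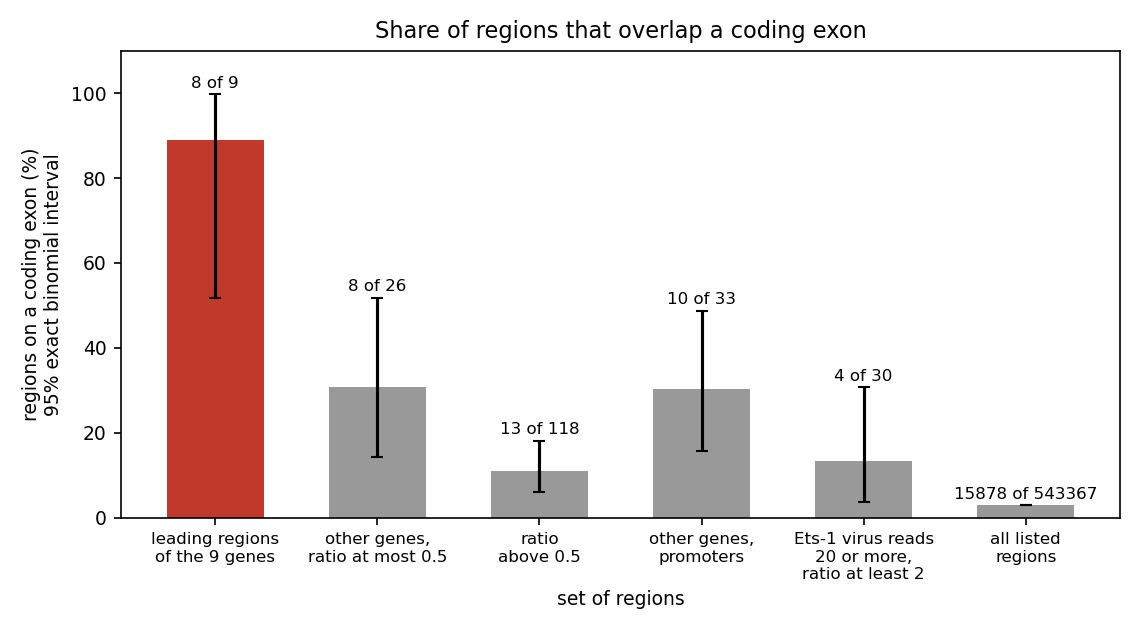
Share of regions that overlap a coding exon (y axis, percent; error bars are 95% exact binomial intervals) in the leading regions of the 9 genes, in 4 sets of well-read regions and in all listed regions. The red bar stands at 88.9%, and the grey bars of other regions between 2.92% and 30.8%. The 8 regions of other genes with a ratio of at most 0.25, of which 75.0% overlap a coding exon, are not shown.

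A search over the whole table for regions like the leading ones, with at least 20 Ad-GFP reads, a ratio of at most 0.5 and no satellite repeat, gave 38 regions. Of these, 12 belonged to 8 of the 9 genes, all but Dnase2b, and the other 26 were 18.1% of the 144 regions of other genes with 20 or more Ad-GFP reads. Of the 26, 8 lay on coding exons (30.8%, 14.3 to 51.8), with an interval that meets that of the 9 leading regions. Those include Dnase2b, which had fewer than 20 Ad-GFP reads. All 12 member regions within the same limits lay on coding exons (100%, 73.5 to 100), with an interval above that of the 26. The genes were chosen by these reads, so nothing is read from this order. The 8 coding regions of other genes include those in Gfap and Fbn1, which encode a filament protein of astrocytes and a protein of extracellular microfibrils. Gfap (chromosome 11, 102892870 to 102893266) held 18 reads after Ad-Ets-1, 122 after Ad-GFP and 7 in the input, a ratio of 0.135 (0.059 to 0.274), on exon 6 of 9. The Fbn1 region (chromosome 2, 125345750 to 125346117), named here from its deposited gene ID, held 2 reads after Ad-Ets-1, 60 after Ad-GFP and 5 in the input, with a ratio of 0.0305 (0.000748 to 0.184), on exon 38 of 66.

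Others on coding exons lay in or near Txnip, an inhibitor of thioredoxin, with 6 reads after Ad-Ets-1 and 47 after Ad-GFP, Dnmt1, the maintenance methyltransferase, with 5 after Ad-Ets-1 and 30 after Ad-GFP, and Iqch, with 13 after Ad-Ets-1 and 28 after Ad-GFP. Rnf2 and Cdc27, named after their values were seen, had 4 and 10 reads after Ad-Ets-1 and 28 and 26 after Ad-GFP. Off coding exons, the regions nearest to Vwf, Il31ra, Wdr92, Cog1 and Zcchc7 held 50, 21, 14, 12 and 10 reads after Ad-Ets-1 and 94, 57, 34, 30 and 29 after Ad-GFP. With a ratio of at most 0.25, 11 regions of the 9 genes and 8 others remained, and 6 of these 8 lay on coding exons (75.0%, 34.9 to 96.8). With at least 10 Ad-GFP reads and a ratio of at most 0.5, 36 of 445 regions of other genes did (8.09%, 5.73 to 11.0), and with at least 50 reads 3 of 8 did (37.5%, 8.52 to 75.5).

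**Figure D4:**
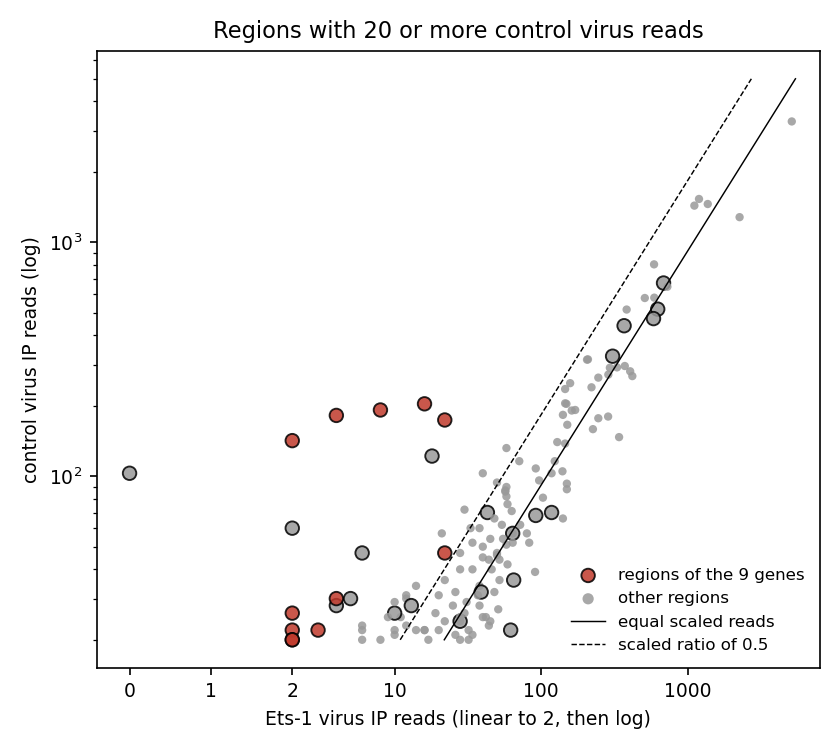
Reads after Ad-Ets-1 (x axis, linear to 2 and logarithmic above) and after Ad-GFP (y axis, logarithmic) in the 156 regions without satellite repeat that held 20 or more Ad-GFP reads. Red points are the 12 regions of the 9 genes and grey points other regions; large outlined points overlap a coding exon. The solid line marks equal scaled reads and the dashed line a ratio of 0.5. Of the 144 grey points 118 lie to the right of the dashed line, while all red points lie to the left of the dashed line, with 2 to 22 Ad-Ets-1 reads.

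Base composition and the Ets-1 recognition word were also read from the reference sequence. The leading regions held 41.1% to 62.4% G and C, with a median of 53.3%. The medians were 40.3% over all listed regions and 44.5% over regions of other genes with 20 or more Ad-GFP reads. Over the 33 promoter regions among the latter, the closer comparison, the median was 49.1%. The exact words CCGGAAGT and CAGGAAGT, taken as the Ets-1 recognition sequence, were searched on either strand. They occurred in none of the 9 leading regions and none of the 16 well-read ones, against 2.68% of all regions of the same widths. So few regions would seldom hold a word at that share, so nothing is read from the absence of the words. Near matches to them were not searched. The core GGAA alone, which the longer words contain, was in all 9 and in 97.5% of regions of those widths.

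Genes that work with the 9, or belong to the same families, held fewer reads than the leading regions in most cases. The 9 were chosen for their Ad-GFP reads, so this difference follows from the choice and nothing is read from it. Of 117 genes in 8 lists (pigment, forebrain patterning, limb and posterior Hox, fibroblast growth factor, myostatin and activin, Kv channel, DNA methylation and deoxyribonuclease genes), 97 were named in the table. Their best regions had a median of 4 reads, and 45 of the 97 (46.4%) reached 5 reads in a precipitated library, against 32.4% of all named genes; long genes hold more regions, and this was not adjusted for. Of these 45, 14 had a ratio of at most 0.5, as did 38.7% of all regions with 5 or more reads in a precipitated library. Another 14 had a ratio of at least 2, for which no share over all regions is given. Nothing is read from either count. Of the 97, 4 genes reached 10 reads, among them Dnmt1 and Tet2, and 1 gene, Dnmt1, reached 20.

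Among pigment genes 7 of 12 reached 5 reads and none reached 10. Mitf, the regulator of melanocytes, held 8 reads after Ad-Ets-1 and 0 after Ad-GFP, the receptor gene Kit 7 after Ad-Ets-1 and 2 after Ad-GFP, and the melanin enzyme gene Tyrp1 0 after Ad-Ets-1 and 6 after Ad-GFP. Of the limb and posterior Hox list 8 of 16 genes were named and 2 of these reached 5 reads, Tbx4 with 6 reads after Ad-Ets-1 and 0 after Ad-GFP and Hoxa10 with 0 after Ad-Ets-1 and 5 after Ad-GFP. Of the 14 myostatin and activin genes 8 reached 5 reads, led by Inhbb, an inhibin and activin subunit, with 10 reads after Ad-Ets-1 and 0 after Ad-GFP, and by Tgfbr1, a receptor, with 6 after Ad-Ets-1 and 10 after Ad-GFP. In the forebrain list 6 of 13 did, with Pax6 at 8 reads after Ad-Ets-1 and 0 after Ad-GFP. Among fibroblast growth factors and their receptors 10 of 24 did, with Fgf12 at 9 reads after Ad-Ets-1 and 6 after Ad-GFP. Of the potassium channel genes 5 of 10 did, with Kcna4 at 0 reads after Ad-Ets-1 and 8 after Ad-GFP, and of the deoxyribonuclease genes 2 of 7, with Dnase1l3 at 8 after Ad-Ets-1 and 2 after Ad-GFP. In the DNA methylation list 5 of 9 did. Dnmt1 (chromosome 9, 20952612 to 20952891) held 5 reads after Ad-Ets-1, 30 after Ad-GFP and 5 in the input, with a ratio of 0.153 (0.034 to 0.648). Tet2, an enzyme that oxidises methylated DNA, held 18 reads after Ad-Ets-1, 15 after Ad-GFP and 5 in the input on a coding exon.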

How the data were processed

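Per the file headers, the comparison table holds what the authors deposited for each region: read counts per library, RPM values, ratios of RPM to input and the log2 ratio of both viruses. By its values, RPM is the count with 1 added, over the total. Each peak of the 2 lists has a deposited fold (a ratio), 2 deposited significance columns (−log10 of p and of q) and a deposited score. The submitters' processing notes name FastQC, Trimmomatic, BWA 0.7.12, MACS2 2.1.0 and build mm10 (settings and control for peak calling: not given in the sources used here).

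Library totals were recovered from counts and RPM. Scaled ratios took a floor of 3 reads for a count of 0, and none was given where both counts were at most 3. Even numbers made up 72.0% of nonzero counts after Ad-Ets-1 and 74.5% after Ad-GFP, so intervals between these libraries took 2 reads as a fragment, rounded up. Input reads were taken singly, although 72.7% of input counts of 4 or more were even, so intervals against the input may be too narrow. Coding exons and principal transcripts came from GENCODE M21, which had the deposited coordinates for all 21 member transcripts. Satellite regions, 213 in number, hold the commonest 12-base word of the most-read region. Members and gene lists were chosen with earlier results of these data known. The text names all 9 genes, up to 3 related genes per list by reads, up to 15 like regions by Ad-GFP reads, and Irs1 and Txnip; Cherp, Rnf2 and Cdc27 were added after their values were seen. Some of what the rule selects is not reported here. Intervals and overlaps were tested on simulated data. Alternatives were other scalings, read minimums, ratio limits and overlap rules. The software was Python 3.11.15 with scipy 1.17.1, pandas 2.3.3, numpy 2.4.6 and matplotlib 3.10.9.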

Additional observations from a re-analysis of the deposited data

How the results depend on the processing

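No paired analysis was possible because there was just 1 library per group, so no replicate could be left out either. All 9 leading regions kept a ratio of at most 0.5 when totals left out satellite regions, with the deposited RPM ratio and with unscaled reads. Of the 133 regions named after the 9 genes, 68 lay within 5 kb of the gene bodies, and 42 reached 3 reads. No share over all regions is given at 3 reads, so nothing is read from the 42. Taking regions by that distance in place of the nearest gene gave 71. At least 50% of the region was coding in 5 leading regions. Regions like the leading ones numbered 459 with at least 10 reads, 13 with at least 50 and 19 at a ratio of at most 0.25; of the non-member ones, 36 with at least 10 reads and 3 with at least 50 lay on coding exons, settings added after seeing the data. All Ets-1 virus peaks as deposited gave 7 genes with a peak, against 0 at q of at most 0.05. The core GGAA was in 9 leading regions. Leading regions held 75.9% of control virus reads of regions within 10 kb. Of the related genes, 75 reached 3 reads and 4 reached 10. Shares over all named genes at these limits are not given, so nothing is read from these counts. Depth limits the ratios: the interval of Dnmt3a reached 0.89 and that of Dnase2b 0.778. With input reads also taken in pairs, a setting added after seeing the data, the Ad-Ets-1 to input interval lay above 1 in 1 leading region (Emx1), against 2 with single input reads (Emx1 and Dnmt3a), and the Ad-GFP to input intervals of all 9 leading regions began above 1, the lowest at 1.61 in Dnase2b.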
